A study of Rattus norvegicus with 9 samples.

Results

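A set of 7 genes that mark GABA interneurons were followed through rat brain tissue taken after treatment with Nano-patrol+NIR, rt-PA or saline. They were the GABA-synthesising enzymes Gad1 (ENSRNOG00000000007) and Gad2 (ENSRNOG00000018200), the peptides Sst (ENSRNOG00000001837), Npy (ENSRNOG00000046449), Vip (ENSRNOG00000018808) and Cck (ENSRNOG00000019321), and the calcium-binding protein Pvalb (ENSRNOG00000006471). These 7 of the 32623 Ensembl genes in the count table were chosen by identifier. The table holds no symbols, so each symbol rests on the list of identifiers that chose the genes. All 7 passed the filter on low counts, which left 15402 genes for testing. Each group had 3 RNA sequencing libraries from brain tissue, named here by group and replicate number. The agent was injected 4.5 h after a modelling step that all groups share, and tissue was taken 3 days later. By its title and treatment label the second group received rt-PA, recombinant tissue plasminogen activator, which dissolves clots, whereas its sample descriptions and count columns say uk. The region of brain, strain, age and the kind of model are not stated in the labels, and no group without the modelling step or with Nano-patrol or NIR alone was analysed here.

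GABA is the main inhibitory transmitter of the adult brain, and both glutamate decarboxylases make it from glutamate. In cortex and hippocampus the neurons that release it are mostly local interneurons, which fall into classes that carry parvalbumin, somatostatin, vasoactive intestinal peptide, neuropeptide Y or cholecystokinin. In striatum the projection neurons also make GABA and carry glutamate decarboxylase, so Gad1 and Gad2 are not restricted to interneurons. Cck is also expressed by many excitatory neurons of cortex, hippocampus and thalamus. In tissue RNA, fewer cells of a type and less RNA per cell cannot be told apart.

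The start regions of the rat genes are shown for Sst and Gad2, which varied in opposite directions between libraries (r = -0.76). A short stretch is shown for Vip, which varied with Sst (r = 0.93). Gad1 ran against Sst more strongly (-0.87) and Pvalb followed Sst more closely (0.97), so the genes shown are examples only. The sequences are RefSeq's on build GRCr8, forward strand, and the windows for Sst (chr11:90461296-90461575) and Gad2 (chr17:89671468-89671747) run from 250 bases before to 30 bases after the annotated start. The Vip stretch (chr1:44470372-44470398) lies 5′ of the start used by the table. Capitals mark the cAMP response element TGACGTCA in Sst and its shorter core TGACG in Vip.
Sst: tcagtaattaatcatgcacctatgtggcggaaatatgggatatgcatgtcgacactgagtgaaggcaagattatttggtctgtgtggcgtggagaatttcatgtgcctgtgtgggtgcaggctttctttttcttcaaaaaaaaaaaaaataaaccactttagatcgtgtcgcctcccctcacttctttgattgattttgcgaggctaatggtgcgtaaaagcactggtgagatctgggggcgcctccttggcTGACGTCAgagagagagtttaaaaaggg
Vip: gatcaccactgTGACGtctttcgagga
Gad2: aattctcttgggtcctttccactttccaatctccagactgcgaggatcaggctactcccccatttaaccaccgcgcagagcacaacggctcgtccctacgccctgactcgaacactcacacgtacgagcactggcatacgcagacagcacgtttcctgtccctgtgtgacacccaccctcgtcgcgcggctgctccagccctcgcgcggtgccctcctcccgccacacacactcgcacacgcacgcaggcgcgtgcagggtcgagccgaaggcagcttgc
Both strands were searched for TGACGTCA, for TGACG, which is part of it, and for TATAAA in the windows of 280 bases of 6 of the 7 genes. Sst held TGACGTCA from the third base after its annotated start, and 1.78% of 33465 rat windows held it at any position. Vip held TGACG 97 bases before its start and Pvalb 241 bases before, and 20.2% of windows hold these letters at any position on either strand. TATAAA was found in Gad1 and Vip and in 13.7% of all windows. For Gad1, Vip and Pvalb the RefSeq gene begins further upstream than the window's start, so other start sites exist. None of the 3 motifs was in the Gad2 or the Npy window. A match describes the letters only, and binding was not measured here.

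Library totals ran from 13059048 to 14992109 counts. Levels are CPM, the count per 1000000 counts of a library after TMM scaling, and can be compared between libraries for 1 gene but not between genes, which differ in length. One library of each group stood apart across all tested genes. The other pair of each group correlated at 0.9836 to 0.9903 across genes, and saline 1, rt-PA 3 and Nano-patrol+NIR 3 correlated with their own groups at 0.8962 to 0.9441. Genes are not independent replicates. Several of the 7 genes lay far from their group in 1 or more of these libraries, so each comparison is given with and without them.

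**Figure D1:**
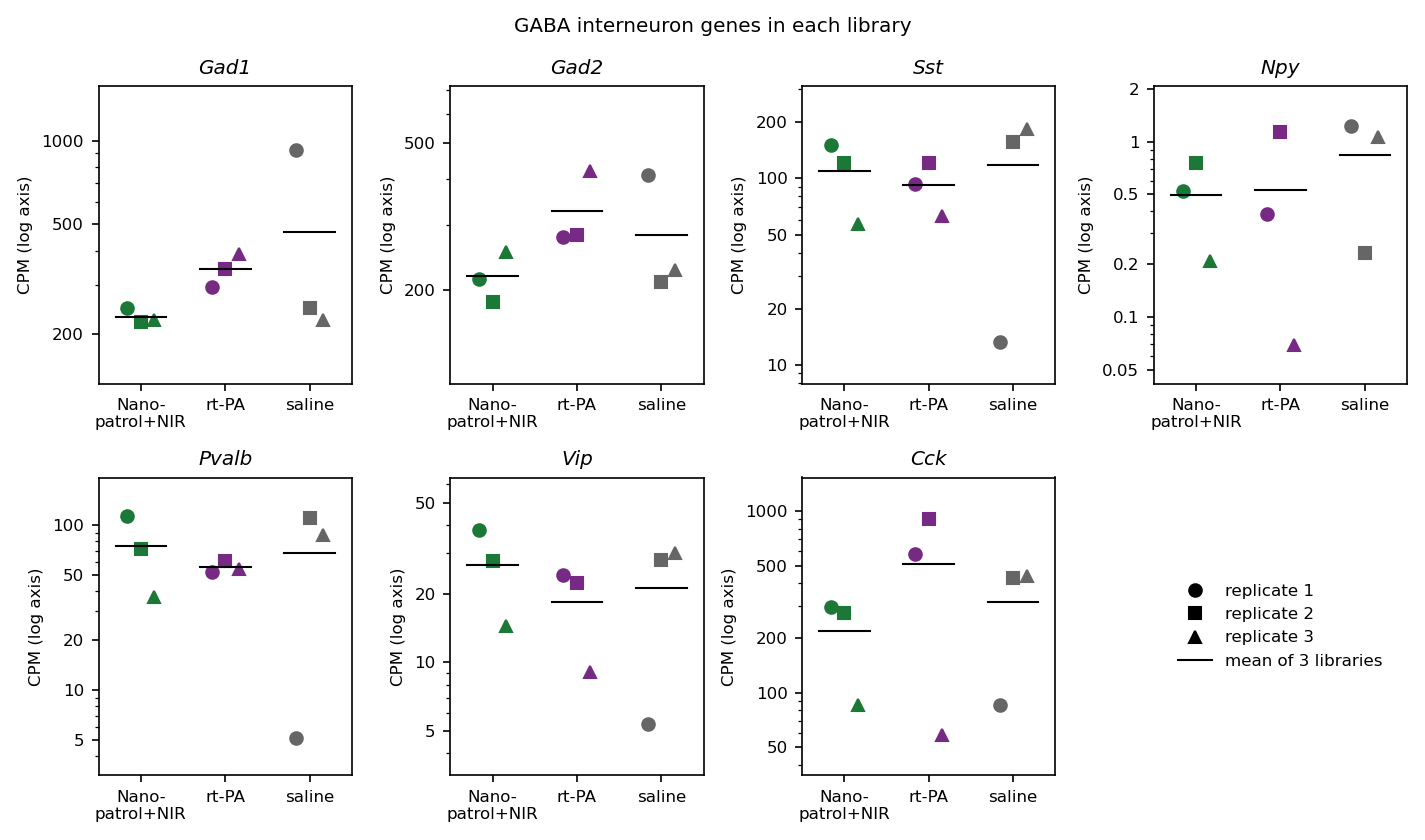
Level of each gene in each library in CPM on a log axis, with the groups Nano-patrol+NIR, rt-PA and saline from left to right, a symbol for each replicate number and a line at the mean of 3 libraries. In saline 1, Gad1 lay at 929 CPM while Sst and Pvalb lay far below the other libraries. Vip was also lowest in saline 1, at 5.36 CPM beside 9.05 CPM in rt-PA 3, and Cck was lowest in rt-PA 3.

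The GABA-synthesising enzymes were within 185 to 421 CPM in every library except saline 1 for Gad1. Gad1, which makes most of the brain's GABA, had 247, 220 and 225 CPM in Nano-patrol+NIR libraries 1 to 3, 295, 342 and 390 CPM in rt-PA libraries and 929, 247 and 225 CPM in saline libraries. Saline 1 was 3.94 times the mean of saline 2 and saline 3, while those lay within the range of the Nano-patrol+NIR libraries. Gad2, the form bound to synaptic vesicles, had 214, 185 and 253 CPM in Nano-patrol+NIR libraries, 277, 281 and 421 CPM in rt-PA libraries and 410, 210 and 226 CPM in saline libraries. For both enzymes every Nano-patrol+NIR library lay below every rt-PA library, as was so for 8.54% of all tested genes. Saline overlapped with both groups, but with rt-PA only through saline 1, as saline 2 and saline 3 lay below every rt-PA library. By group mean the order was saline, rt-PA and Nano-patrol+NIR for Gad1 and rt-PA, saline and Nano-patrol+NIR for Gad2, and no neighbours in either order differed past the test below.

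Sst, the peptide of dendrite-targeting interneurons, had 150, 121 and 56.8 CPM in Nano-patrol+NIR libraries 1 to 3, 93.3, 121 and 62.8 CPM in rt-PA libraries and 13.2, 157 and 184 CPM in saline libraries. Pvalb, the calcium buffer of fast-spiking interneurons, had 114, 71.9 and 36.5 CPM in Nano-patrol+NIR libraries, 51.8, 60.4 and 53.8 CPM in rt-PA libraries and 5.09, 110 and 87.3 CPM in saline libraries. Vip, the peptide of interneurons that largely inhibit other interneurons, had 37.8, 27.8 and 14.5 CPM in Nano-patrol+NIR libraries, 24.01, 22.2 and 9.05 CPM in rt-PA libraries and 5.36, 28.0 and 30.1 CPM in saline libraries. For all 3 genes saline 1 held the lowest value of the 9 libraries, and Nano-patrol+NIR 3 was the lowest of its group. All 3 pairs of groups overlapped for each gene. The Sst mean was highest in saline, and the Pvalb and Vip means were highest in Nano-patrol+NIR, but these orders were within the spread between libraries.

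Cck, a peptide of basket-type interneurons and of many excitatory neurons, had the widest spread within groups of the 7 genes. It had 296, 273 and 85.6 CPM in Nano-patrol+NIR libraries 1 to 3, 580, 901 and 58.5 CPM in rt-PA libraries and 84.9, 427 and 440 CPM in saline libraries. Each group therefore held 1 low library, and rt-PA held both the highest and the lowest value of the 9. Its means were 218 CPM (SD 115) over the Nano-patrol+NIR libraries, 513 CPM (SD 425) over the rt-PA libraries and 317 CPM (SD 201) over the saline libraries, in the order rt-PA, saline, Nano-patrol+NIR.

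The identifier given for Npy was almost without reads. Its counts were 7, 10 and 3 in Nano-patrol+NIR libraries, 5, 15 and 1 in rt-PA libraries and 18, 3 and 15 in saline libraries, or 0.0696 to 1.22 CPM. Npy is a well known peptide of cortical and striatal interneurons. Neither the pairing of this identifier with that name nor the reason for so few reads was tested. The row is kept under the symbol Npy. Its log2 fold changes were -0.67 in rt-PA against saline, -0.76 in Nano-patrol+NIR against saline and -0.10 in Nano-patrol+NIR against rt-PA, with edgeR adjusted p of 0.738, 0.9999 and 0.974. No difference was detectable at such low counts.

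In the comparison of rt-PA with saline, which asks whether expression differed after a clot-dissolving agent, none of the 7 genes passed the edgeR quasi-likelihood test at an adjusted p under 0.05, and 0.00649% of all tested genes did. The count was also 0 at an unadjusted p under 0.05, where 17% of all tested genes lay. It was 0 with DESeq2 (6.9% of all tested genes called), with limma-voom (0%) and with limma-voom weighted by library (45.2%). The Gad1 mean was 342 CPM (SD 47.5) in rt-PA libraries, against 467 CPM (SD 401) in saline libraries, a log2 fold change of -0.45 with a 95% interval of -1.57 to 0.67 (edgeR adjusted p = 0.676). Without saline 1 its direction turned, to 0.57 (edgeR unadjusted p = 0.0088, adjusted p = 0.15). In that fit the unadjusted p was under 0.05 for 3045 genes in all, and 11 genes were called. Saline 1 lay far from its group, so the spread is smaller without it. The Gad2 mean was 327 CPM (SD 82.0) in rt-PA libraries, against 282 CPM (SD 111) in saline libraries, a log2 fold change of 0.21 with an interval of -0.46 to 0.89 (edgeR adjusted p = 0.748). Without saline 1 it was 0.62 (edgeR unadjusted p = 0.030, adjusted p = 0.213), without saline 2 or saline 3 it was 0.047 or 0.086, and without rt-PA 3 it was 0.0076. Cck had the largest value of the 7, a log2 fold change of 0.69, with an interval of -1.40 to 2.79 (edgeR adjusted p = 0.735). It was 0.012 without rt-PA 2, 0.29 without saline 1 and 1.26 without rt-PA 3, and 1.04 without saline 3. Sst, Pvalb and Vip had values of -0.36, -0.29 and -0.20 with intervals that spanned at least -1.65 to 1.24. These 3 turned positive without 1 library in some fits: Sst was 0.16 without saline 3, Pvalb 0.29 without saline 2, and Vip 0.08 without saline 2, 0.18 without saline 3 and 0.16 without rt-PA 3. The median over the 7 genes was -0.29, with 5 values below 0, beside a median of -0.01 over all tested genes.

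Nano-patrol+NIR set against saline gave the same count of 0 of 7 genes, with 0.00649% of all tested genes past the edgeR threshold. At an unadjusted p under 0.05 edgeR had 0 of the 7, against 5.89% of all tested genes. DESeq2 (0.857% of all called), limma-voom (0%) and limma-voom weighted by library (5.9%) also called 0. The Gad1 mean was 230 CPM (SD 14.6) in Nano-patrol+NIR libraries, against 467 CPM (SD 401) in saline libraries, a log2 fold change of -1.02 with a 95% interval of -2.15 to 0.11 (edgeR unadjusted p = 0.072, adjusted p = 0.907). That value rested on saline 1, and without it was -0.02 (edgeR adjusted p = 0.987). The Gad2 mean was 217 CPM (SD 34.3) in Nano-patrol+NIR libraries, against 282 CPM (SD 111) in saline libraries, a value of -0.37, and 0.01 without saline 1. Sst, at -0.11, became positive at 0.14 without saline 2, 0.36 without saline 3 and 0.21 without Nano-patrol+NIR 3. Pvalb, at 0.14, became negative at -0.40 without saline 1 and -0.31 without Nano-patrol+NIR 1. Vip had a value of 0.33, and -0.12 without saline 1 or -0.0012 without Nano-patrol+NIR 1. Cck had -0.54 (interval -2.63 to 1.55), and values of -0.15 without Nano-patrol+NIR 3, -0.24 without saline 3, -0.28 without saline 2, -0.83 without Nano-patrol+NIR 1 and -0.98 without saline 1. The median over the 7 genes was -0.37, with 5 values below 0, beside -0.01 over all tested genes. Both comparisons share the saline libraries, so saline 1 enters the fold changes of each. It also enters the spread used in every comparison, since the edgeR fit holds all 9 libraries.

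Nano-patrol+NIR was also compared with rt-PA, both thrombolysis treatments by the title of the series. Again 0 of 7 genes passed with edgeR, and 0% of all tested genes were called. At an unadjusted p under 0.05 the test held 0 of the 7 and 2121 of all tested genes (13.8%). DESeq2 called 627 genes (4.07%) and limma-voom 1 gene (0.00649%), with 0 of the 7 in both. The Gad1 mean was 230 CPM (SD 14.6) in Nano-patrol+NIR libraries, against 342 CPM (SD 47.5) in rt-PA libraries, a log2 fold change of -0.57 with an interval of -1.69 to 0.55 (edgeR adjusted p = 0.644). The Gad2 mean was 217 CPM (SD 34.3) in Nano-patrol+NIR libraries, against 327 CPM (SD 82.0) in rt-PA libraries, a value of -0.59 with an interval of -1.27 to 0.09 (edgeR unadjusted p = 0.082, adjusted p = 0.425). These 2 of the 7 genes had no overlap between the libraries of the groups, and 8.54% of all tested genes were lower without overlap. The spread behind these intervals is shared over all 9 libraries, saline 1 included. With only the 6 libraries compared, edgeR unadjusted p was 0.014 for Gad1 and 0.042 for Gad2 (adjusted 0.321 and 0.374). That p was under 0.05 for 1918 genes in all. Without saline 1 it was 0.0039 and 0.019 (adjusted 0.168 and 0.217), and under 0.05 for 2621 genes. In both fits the log2 fold changes of Gad1 and Gad2 stayed between -0.57 and -0.60. Cck had a value of -1.23 with an interval of -3.35 to 0.88 (edgeR adjusted p = 0.593). It was -0.55 without rt-PA 2, -0.89 without Nano-patrol+NIR 3 and -1.81 without rt-PA 3 (edgeR unadjusted p = 0.035, adjusted p = 0.135). In the fit without rt-PA 3 the unadjusted p was under 0.05 for 4707 genes in all, and 2047 genes were called. limma-voom weighted by library called Gad2 (-0.49, adjusted p = 0.0162) and Cck (-1.19, adjusted p = 0.0383) lower, in a fit that called 39.1% of all tested genes and that gave Nano-patrol+NIR 3, rt-PA 3 and saline 1 weights of 0.31, 0.13 and 0.18. Pvalb, Vip and Sst had positive values of 0.42, 0.54 and 0.25 in the edgeR fit, and Pvalb and Sst were at -0.06 and -0.08 without Nano-patrol+NIR 1. Sst was -0.01 without rt-PA 3, and Vip was 0.16 without Nano-patrol+NIR 1 and 0.17 without rt-PA 3.

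**Figure D2:**
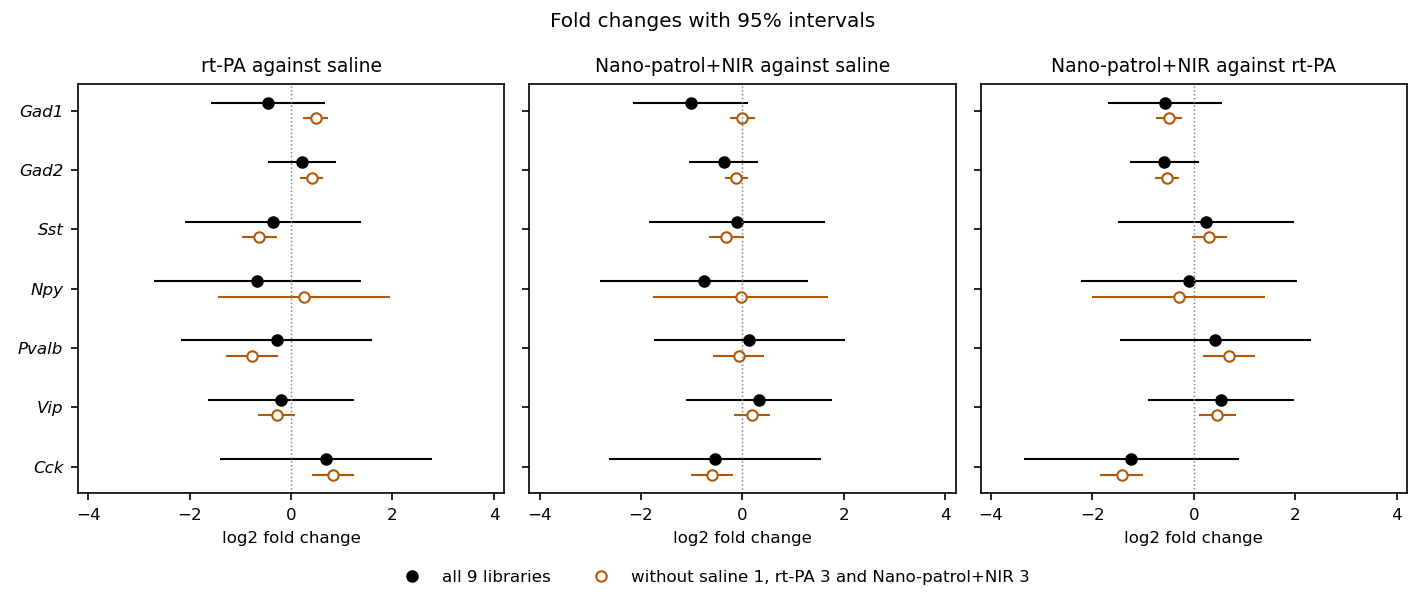
Log2 fold change of each gene in the 3 comparisons with 95% intervals from edgeR, filled points for all 9 libraries and open points with the 3 libraries that stood apart left out. With all 9 libraries every interval spans 0, and without the 3 libraries Gad1 in rt-PA against saline moves to 0.48.

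The spread within groups was wide for the peptides and Pvalb. Within-group SD on the log2 CPM scale was 1.33 for Sst, 1.49 for Pvalb, 1.00 for Vip and 1.56 for Cck, and 92.7% to 98.3% of tested genes had a lower one. It was 0.67 for Gad1, with a lower one in 80.6% of tested genes, and 0.39 for Gad2, where the median of all tested genes was 0.36. Saline 1 had 12.9 times less Sst, 19.4 times less Pvalb, 5.43 times less Vip and 5.11 times less Cck than the mean of saline 2 and saline 3, but 3.94 times more Gad1 and 1.88 times more Gad2. After 0.1 CPM was added to each value, 0.636% of tested genes lay as far from the other saline libraries as Sst, 0.351% as far as Pvalb, 2.82% as far as Vip, 3.097% as far as Cck and 4.91% as far as Gad1. For Gad2 and Npy the shares were 21.8% and 25.5%.

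The other libraries that stood apart differed from their groups by less for most of these genes. Nano-patrol+NIR 3 had 2.39 times less Sst, 2.55 times less Pvalb, 2.27 times less Vip and 3.32 times less Cck than the mean of the other 2 of its group, with Gad1 at 0.963 and Gad2 at 1.27 of that mean. Of all tested genes 3.67% lay as far from the other 2 as Cck, 6.49% to 8.91% as far as Sst, Pvalb and Vip, 50.3% as far as Gad2 and 91.1% as far as Gad1. In rt-PA 3, Cck was 12.7 times lower than in the other 2, Vip 2.55 times and Sst 1.71 times lower, whereas Pvalb was at 0.959 of their mean. Gad1 and Gad2 were at 1.22 and 1.51 of it. There 1.19% of all tested genes lay as far from the other 2 as Cck, but 16.04% as far as Vip, 34.1% as far as Sst, 43.9% as far as Gad2, 68.3% as far as Gad1 and 93.03% as far as Pvalb, so apart from Cck these ratios were ordinary for that library. For Npy the shares were 4.9% in rt-PA 3 and 7.5% in Nano-patrol+NIR 3, from counts of 1 and 3. The identifiers of striatal, glial or excitatory markers were not paired with symbols, so the makeup of these pieces of tissue was not tested.

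**Figure D3:**
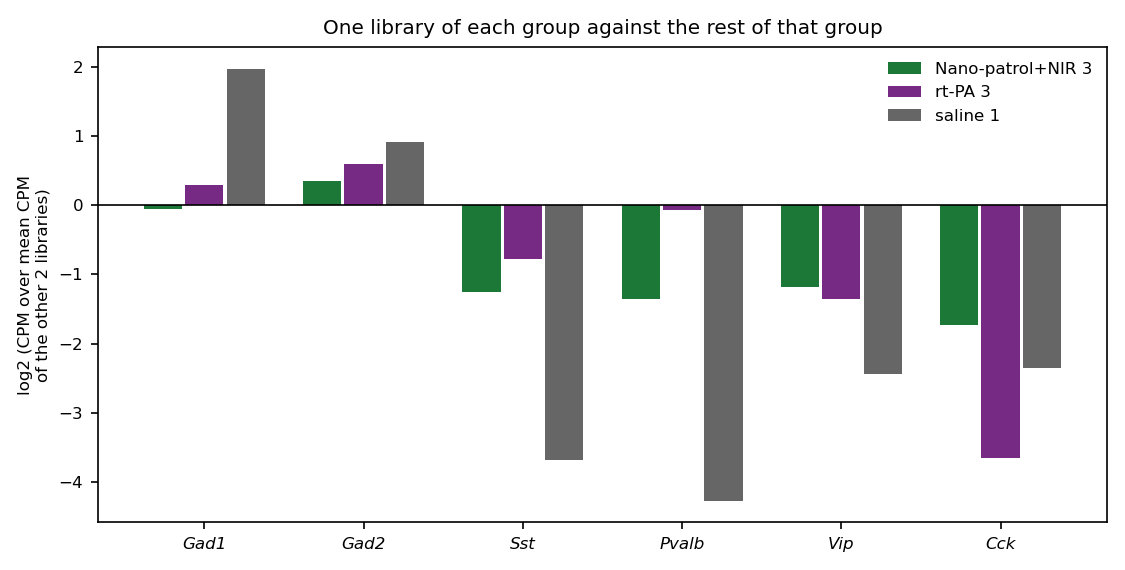
Log2 ratio of the CPM in Nano-patrol+NIR 3, rt-PA 3 and saline 1 to the mean CPM of the other 2 libraries of the same group, for 6 genes (Npy is left out for its low counts). Sst, Pvalb, Vip and Cck lie below 0 in all 3 libraries, though Pvalb in rt-PA 3 only at -0.06, and Gad2 lies above 0 in all 3.

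Without these 3 libraries each group keeps 2 that are much alike, and 43.8% of all tested genes were called in rt-PA against saline, 3.27% in Nano-patrol+NIR against saline and 40.5% in Nano-patrol+NIR against rt-PA. The libraries were left out because they lay far from their groups, so the spread that remains is too small and so are the p-values. In rt-PA against saline 5 of the 7 genes were called in this fit. Gad1 had a mean of 318 CPM in rt-PA libraries, against 236 CPM in saline libraries (log2 fold change 0.48, SE 0.11, edgeR adjusted p = 0.00651), the reverse of its direction with all 9 libraries. Gad2 had a mean of 279 CPM in rt-PA libraries, against 218 CPM in saline libraries (0.41, SE 0.10, edgeR adjusted p = 0.00994), and Cck had 741 CPM in rt-PA libraries, against 433 CPM in saline libraries (0.82, SE 0.18, edgeR adjusted p = 0.00711). Sst had a mean of 107 CPM in rt-PA libraries, against 171 CPM in saline libraries (-0.62, SE 0.15, edgeR adjusted p = 0.00999), and Pvalb had 56.1 CPM in rt-PA libraries, against 98.6 CPM in saline libraries (-0.76, SE 0.22, edgeR adjusted p = 0.0254). Both enzymes and Cck were thus higher in the remaining rt-PA libraries while Sst and Pvalb were lower.

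In the same fit 0 of 7 genes were called in Nano-patrol+NIR against saline, and Cck, at 284 CPM in Nano-patrol+NIR libraries against 433 CPM in saline libraries, had the smallest p (log2 fold change -0.60, edgeR unadjusted p = 0.010, adjusted p = 0.124). Gad1 was at -0.01 with a 95% interval of -0.25 to 0.24. Against rt-PA, 5 of 7 were called. Gad1 (-0.49, edgeR adjusted p = 0.00667), Gad2 (-0.53, edgeR adjusted p = 0.00304) and Cck (-1.42, edgeR adjusted p = 0.000582) were lower in Nano-patrol+NIR, and Pvalb (0.69, edgeR adjusted p = 0.0401) and Vip (0.46, edgeR adjusted p = 0.0426) were higher. With all 9 libraries these 5 genes had the same directions in the edgeR fit, which called none of them. limma-voom weighted by library called Gad2 and Cck. Both fits include the libraries kept here, and the weights gave little to those left out, so neither is an independent check. Shares of 5 in 7 stand beside 43.8% and 40.5% of all tested genes.

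Over the 9 libraries Sst, Pvalb and Vip varied together and so did Gad1 and Gad2, given here as a description since libraries share groups and the 3 that stand apart. Log2 CPM of Sst correlated with Pvalb at r = 0.97 (Spearman 0.92) and with Vip at 0.93 (0.92), and Gad1 with Gad2 at 0.83 (0.85). Gad1 ran against Sst at -0.87 (-0.60) and against Pvalb at -0.88 (-0.47). Over the 6 libraries that did not stand apart the values were 0.82 for Sst with Pvalb, 0.62 for Sst with Vip, 0.90 for Gad1 with Gad2, -0.57 for Gad1 with Sst and -0.59 for Gad1 with Pvalb. Npy went with none of the other 6 genes, at -0.28 to 0.45 over the 9 libraries. Cck changed sides. It correlated with Vip at 0.76 and with Gad1 at -0.41 over 9 libraries, but at -0.79 with Vip and 0.89 with Gad1 over those 6.

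**Figure D4:**
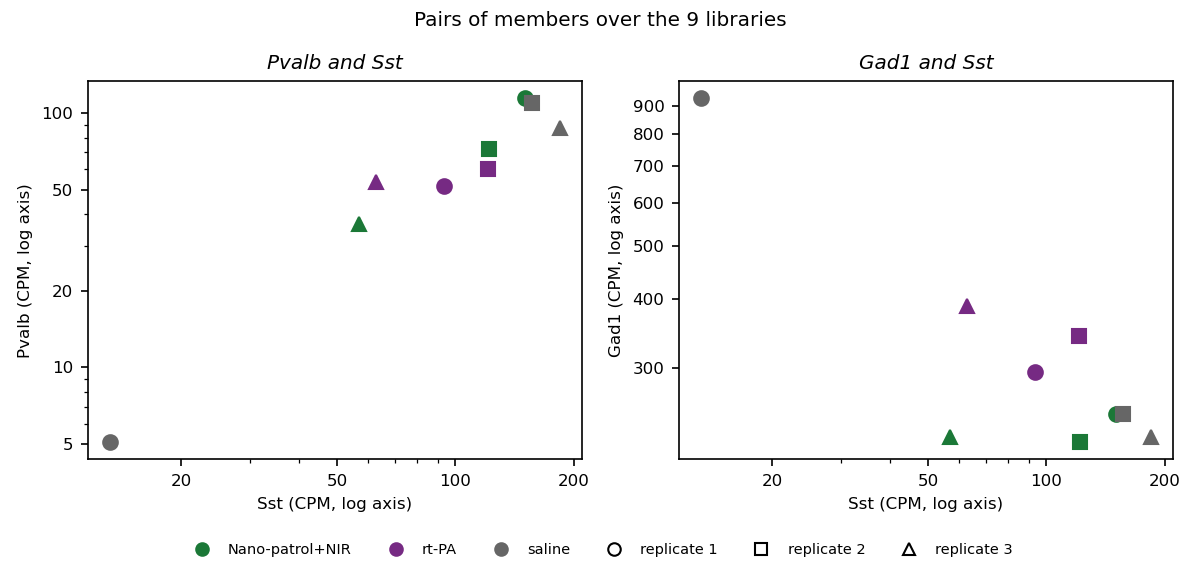
CPM of Pvalb (left) and of Gad1 (right) against CPM of Sst in each of the 9 libraries, all axes log, with a colour for each group and a symbol for each replicate number. Saline 1, at 13.2 CPM of Sst, lies far from the other libraries in both panels.

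Ratios of counts within a library do not depend on its scaling. Gad1 counts were 1.64, 1.81 and 3.96 times the Sst counts in Nano-patrol+NIR libraries 1 to 3, 3.16, 2.83 and 6.21 times in rt-PA libraries and 70.2, 1.57 and 1.22 times in saline libraries. The ratio thus ranged from 1.22 to 70.2 within saline, and was highest in the library of each group that stood apart. Gad1 counts were 0.887 to 1.19 times the Gad2 counts in Nano-patrol+NIR libraries and 0.924 to 1.22 times in rt-PA libraries. In saline libraries they were 0.996 to 2.27 times, with the highest in saline 1, so outside saline 1 the ratio of the enzymes stayed between 0.887 and 1.22. Of the 11855 other genes that averaged 5 CPM or more, ENSRNOG00000013603, which the sources used here do not name, had the highest mean correlation with the 7 genes over the 9 libraries. That mean was only 0.37, ranging from -0.55 to 0.93 between the 7, as the set does not vary as one.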

How the data were processed

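RNA from rat brain tissue was selected by its poly(A) tail and made into libraries, per the labels' protocols. Among the tools in the submitters' processing notes are StringTie 1.3.1, HISAT2, Bowtie2 2.2.8 and fastp 0.18.0, with no role for any. For the counter, strand setting, build and annotation the labels have no entry. The authors deposited whole-number read counts per Ensembl gene, not normalized; reads shared by overlapping or antisense genes cannot be told apart. Groups came from titles, and columns were matched through sample descriptions. No label ties the libraries of a group to separate animals. The p-values therefore cover only the spread among these libraries, part of which may be technical.

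In R 4.3.3, edgeR 4.0.16 kept 15402 genes (filterByExpr), scaled by TMM, fitted all 9 libraries with a mean for each group, which leaves 6 residual degrees of freedom, and ran robust quasi-likelihood F tests with Benjamini-Hochberg adjustment over all tested genes. SE is the log2 fold change over the square root of F. Correlations used log2 CPM with a prior count of 2. The code was tested on simulated counts. An exact permutation test of 3 against 3 libraries cannot go below 0.1, so none was run. Alternatives used DESeq2 1.42.0, limma 3.58.1, other scalings and filters, the 6 libraries compared, the replicate number as a block and fewer libraries. All 7 genes are named. Members, lists and alternatives were chosen with earlier results of these data known. Of 47357 reference genes, 0 carry an Ensembl identifier, so the lists of related genes and cell type markers could not be used. Counting error is small beside the spread between libraries except for Npy, with 1 to 18 counts.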

Additional observations from a re-analysis of the deposited data

How the results depend on the processing

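Of all tested genes edgeR called 1 in rt-PA against saline, 1 in Nano-patrol+NIR against saline and 0 in Nano-patrol+NIR against rt-PA, and other settings follow in this order. DESeq2 gave 1062, 132 and 627, limma-voom 0, 0 and 1, the same with weights per library 6956, 909 and 6027, and the 6 libraries compared 0, 3 and 0. With a single library left out the numbers were 0 to 2112, 0 to 35 and 0 to 2047, with each highest value without rt-PA 3. With the 3 libraries that stood apart left out the counts were 6710, 501 and 6195. Of the 7 genes, 5, 0 and 5 were then called, against 0, 0 and 0 with all libraries; leaving out 1 library gave 0 to 0 in each comparison. With the weights limma-voom called 2 of them in Nano-patrol+NIR against rt-PA. What causes this was not tested. Npy could not be fitted in the 6 libraries of Nano-patrol+NIR against rt-PA, where it missed the filter.

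The replicate block gave 0, 0 and 0 called genes and called none of the 7 genes, a count of 0 in each comparison. Deviations of same-numbered libraries correlated at -0.362 to 0.278, over 0.1 in 5 of 9 pairs, and for 2 of 9 libraries the closest match had the same number. With the block, Sst in Nano-patrol+NIR against saline was 0.016 and Npy in Nano-patrol+NIR against rt-PA was 0.00396.

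Of 21 log2 fold changes of the 7 genes, 9 kept their direction in all alternatives. In rt-PA against saline, limma-voom turned Sst to 0.30, Pvalb to 0.62 and Vip to 0.036, library weights turned Gad1 to 0.35, and leaving out the 3 libraries turned Gad1 to 0.48 and Npy to 0.26. Leaving out 1 library gave -0.78 to 0.57 for Gad1, -0.85 to 0.16 for Sst, -0.80 to 0.29 for Pvalb and -0.62 to 0.18 for Vip. In Nano-patrol+NIR against saline, limma-voom turned Sst to 0.48, library weights turned Pvalb to -0.061, and leaving out the 3 libraries turned it to -0.077. Leaving out 1 library gave -0.57 to 0.013 for Gad2, -0.63 to 0.36 for Sst, -0.40 to 0.67 for Pvalb and -0.12 to 0.67 for Vip. In Nano-patrol+NIR against rt-PA, limma-voom turned Npy to 0.37 and library weights to 0.32. Leaving out 1 library gave -0.084 to 0.52 for Sst, -0.66 to 1.11 for Npy and -0.062 to 0.72 for Pvalb. No scaling moved the median of all genes by over 0.1. Low counts limit Npy only, and the reason for them was not tested.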
